A study of Rattus norvegicus with 17 samples.

Results

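The genes described here encode the subunits of the oxidative phosphorylation complexes of mitochondria, together with assembly factors of complex I, measured in rat spinal cord neurons. Members were chosen by name, as the probe sets whose only gene symbol begins with Nduf, Uqcr, Cox4 to Cox8 or Atp5, or is Sdha, Sdhb, Sdhc or Sdhd. The rule used no measured value and gave 86 of the 14218 genes that had a probe set with 1 symbol, measured by 96 of the 31099 probe sets on the array. By complex these were 39 probe sets of complex I, 7 of complex I assembly factors, 5 of complex II, 8 of complex III, 17 of complex IV and 20 of complex V. A further 7 probe sets carried several symbols, 1 or more of them matching, and were not counted.

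The study measured gene expression on Affymetrix arrays in retrogradely labelled spinal cord neurons, with 1000 neurons pooled by laser capture for each array from 10 µm cryosections of unfixed cord. Axotomised rats gave the regenerating neurons, with 1 array each for MM11, MM13, MM14, MM16 and MM17 and for MOON265 and MOON266, and each of these 7 animals also gave an array of non-regenerating neurons. Traced neurons, which were labelled without axotomy, were taken from a separate set of 3 rats (MM15, MM18 and MM19). Strain, age, sex, the place and time of the axotomy and the way regenerating neurons were recognised are not given in the sources used here, nor is the meaning of the name prefixes MM and MOON or of the words high yield replicate in the title of traced MM15. RNA from all 17 samples went through 3 rounds of linear amplification, and precision is limited by how few arrays there are.

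Oxidative phosphorylation passes electrons from NADH (complex I) and succinate (complex II) through ubiquinone to complex III, then through cytochrome c to complex IV, which reduces oxygen. Complexes I, III and IV pump protons across the inner mitochondrial membrane, and complex V, the ATP synthase, makes ATP as the protons flow back. Neurons depend on this pathway for most of their ATP, and mitochondria carried along axons supply the growing or injured tip. The subunits encoded by the mitochondrial genome itself carry other symbols and were not among the members.

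Promoters of 3 members are shown because genes of this pathway are known for sharing binding sites of a few transcription factors, chiefly NRF1, the ETS factor GABPA, YY1, Sp1 and the oestrogen-related receptors, as worked out mostly in human and rodent cells. Sequences are from RefSeq (GRCr8), run 5′ to 3′ along the gene and span 250 bases before to 50 bases after its annotated start. Capitals mark matches, on either strand, to the letters GCGCATGC (NRF1 core), CCGGAAG (ETS), AAGATGGC (YY1), TCAAGGTCA (ERR) or GGGCGG (Sp1). Sdhb (chr5:158547684-158547983, plus strand), an iron-sulphur subunit of complex II, held an NRF1 and an ETS match. Atp5me (chr14:1464610-1464909, plus strand), a subunit of the membrane part of ATP synthase, held all kinds but ERR. Cox5a (chr8:66818034-66818333, plus strand), of complex IV, held matches to Sp1 alone.
Sdhb: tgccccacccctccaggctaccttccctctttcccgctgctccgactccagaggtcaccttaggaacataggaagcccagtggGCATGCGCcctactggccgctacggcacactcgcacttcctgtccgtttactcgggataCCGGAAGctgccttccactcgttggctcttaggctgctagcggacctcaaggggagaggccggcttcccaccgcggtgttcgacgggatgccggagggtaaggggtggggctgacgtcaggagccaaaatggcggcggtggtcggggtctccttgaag
Atp5me: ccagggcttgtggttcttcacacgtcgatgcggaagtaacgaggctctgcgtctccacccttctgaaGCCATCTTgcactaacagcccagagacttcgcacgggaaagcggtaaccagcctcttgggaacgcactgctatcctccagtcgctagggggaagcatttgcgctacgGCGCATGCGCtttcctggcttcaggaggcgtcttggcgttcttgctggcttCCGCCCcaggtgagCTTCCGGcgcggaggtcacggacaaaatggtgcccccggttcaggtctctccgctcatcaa
Cox5a: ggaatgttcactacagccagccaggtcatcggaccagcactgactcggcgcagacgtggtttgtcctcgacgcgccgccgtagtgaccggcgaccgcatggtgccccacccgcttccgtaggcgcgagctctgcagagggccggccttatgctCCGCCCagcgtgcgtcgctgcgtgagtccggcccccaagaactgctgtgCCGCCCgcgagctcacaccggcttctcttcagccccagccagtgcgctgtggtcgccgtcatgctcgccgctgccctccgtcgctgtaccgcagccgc

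Promoter windows were found for 78 of the 86 member genes. A YY1 match was present in 17 of them (21.8%), against 4.72% of the 11701 genes with a promoter window and a probe set of 1 symbol on the array. Apart from those in Atp5me (-183) and Atp5pf (-111), the YY1 matches of members began at -4 to 36 bases from the annotated start. The YY1 letters contain ATG, and matches that hold a start codon were not told apart from others. The NRF1 core was in 9 members (11.5%) against 4.29%, the ETS letters in 22 (28.2%) against 15%, the ERR letters in 2 (2.56%) against 0.214%, and the Sp1 letters in 34 (43.6%) against 57.5%. The ETS motif ends in the 3 letters with which the YY1 motif starts, and in 0 members did a pair of matches overlap there. The members with the NRF1 core were Atp5me, Atp5mg, Atp5po, Ndufa11, Ndufa6, Ndufaf4, Ndufaf5, Sdhb and Uqcrc1. These counts describe letters in a window and were not tested.

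Across the arrays, 2 stood apart from the rest, and both touch the values given here. Non-regenerating MM17 and traced MM15 correlated less with the rest, at medians of 0.847 and 0.821 against 0.905 to 0.949 elsewhere, and the lowest 3′ to 5′ ratios of the Gapdh and beta-actin control probe sets (log2 3.74 and 3.53), a measure of how far the amplified RNA is shortened. The 4 arrays of MOON animals had median signals of 32.8 to 39, below those of the MM animals, and all traced animals were MM animals. Neuron markers were measured for 10 of 10 genes, with summed signals of 16170 to 28440 in regenerating, 14850 to 42700 in non-regenerating and 20200 to 44810 in traced samples. Glial RNA was present as well. The 10 astrocyte genes summed to 14540 to 22560, 13740 to 23060 and 12550 to 13050 in the 3 groups in that order, and the 12 microglia and macrophage genes to 3472 to 6780, 3528 to 6068 and 2034 to 2319, so neither list overlapped between axotomised and traced samples. The 8 tested microglia and macrophage genes were all higher in both axotomised groups than in traced samples. Tyrobp (means 31.5, 35.2 and 61.9), Cx3cr1 (26.6, 32 and 61.2) and Itgam (2.66, 3.93 and 4.27), too dim to be tested, had their highest mean in traced samples. In these mixed samples, fewer cells of a type and less RNA per cell cannot be told apart, and the part of glial RNA in the values of the members was not tested.

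Of the 96 members, 87 were bright enough to be tested (79 genes), at a mean log2(signal + 16) above the 40th percentile of all probe sets. Over the 87, the median log2(signal + 16) per array averaged 9.47 ± 0.43 in regenerating samples, with 9.21 ± 0.36 in non-regenerating and 9.23 ± 0.46 in traced ones (SD, n = 7, 7 and 3). Single arrays spanned 8.69 to 10.01, 8.76 to 9.81 and 8.71 to 9.59 in the same order, so the groups overlapped. Regenerating MOON266, non-regenerating MM17 and traced MM15 were the lowest of their groups, and each also had the lowest 3′ to 5′ ratio of its group (4.37, 3.74 and 3.53).

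**Figure D1:**
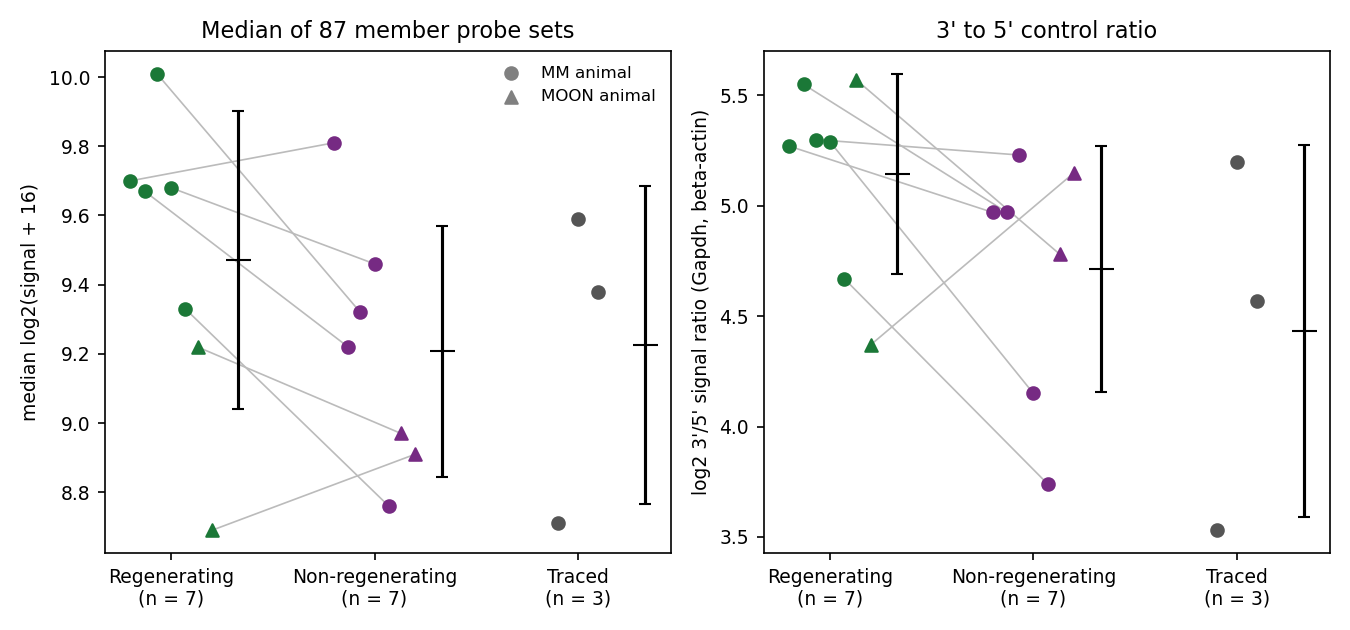
The left panel plots the median log2(signal + 16) over the 87 tested members for each array, and the right panel the log2 3′ to 5′ signal ratio of the control probe sets, for the regenerating, non-regenerating and traced groups. Grey lines join the samples of 1 animal, triangles are MOON animals, and bars give mean and SD. Medians span 8.69 to 10.01 in regenerating and 8.76 to 9.81 in non-regenerating samples, and the lowest array of each group in the left panel is also its lowest in the right panel.

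Regenerating neurons were compared with the non-regenerating neurons of the same animal to ask what accompanies regeneration. No member passed limma at an adjusted p under 0.05, and the differences were small. Of the 87 members, 55 were higher and 32 lower in the regenerating sample, with a median log2 fold change of 0.07 (quartiles -0.05 and 0.21), against a median of -0.00 (quartiles -0.13 and 0.14) over all 18625 probe sets tested. The smallest adjusted p of a member was 0.541, for Atp5f1d. In the whole table, 2 probe sets passed on the higher side (0.0107%) and 1 on the lower (0.00537%).

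At an unadjusted p under 0.05 in limma, 6 members were higher (6.9% of 87, against 4.26% of all probe sets) and 0 were lower (against 2.81%). They were Atp5f1d, Atp5pd, Sdhb, Ndufb7, Ndufa7 and Uqcrq, from complexes V, II, I and III. Without MM14 1 member was higher at that p (1.15%, against 2.22% of all probe sets). Without MOON265 or MOON266 11 were (12.6%, against 5.29% and 4.74%), and without MM16 5 were higher (5.75%, against 4.68%) and 6 lower (6.9%, against 3.38%). In 7 of 7 animals, 2 members were higher, Atp5f1d and Ndufs8 (against 1.12% of all probe sets, or 2.3% of members), and 0 were lower (against 0.966%). Complex III had the highest median of the complexes, 0.17 with 6 of 8 probe sets higher, and complex IV the lowest, -0.09 with 4 of 12 higher. By animal, the median difference over complex III was 0.61 in MM14, 0.41 in MM17, 0.27 in MM16 and 0.04 in MM13. It was below 0 in MM11 (-0.07), MOON265 (-0.08) and MOON266 (-0.07). Complex V had a median of 0.12 (13 of 18 higher), complex I 0.08 (26 of 37), the complex I assembly factors 0.05 (4 of 7) and complex II -0.00 (2 of 5).

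The median member difference was not of 1 sign across animals. It was 0.30 in MM16, 0.23 in MM17, 0.19 in MM13 and 0.08 in MM14, and below 0 in MOON265 (-0.02), MOON266 (-0.11) and MM11 (-0.15). The number of members higher in the regenerating sample ran from 25 of 87 in MM11 to 73 of 87 in MM16. The 3′ to 5′ ratio was higher in the regenerating sample of 6 animals, by 0.07 (MM14) to 1.13 (MM16), and lower in MOON266 (-0.78). With that ratio as a covariate, the median was 0.01 over the members and 0.03 over all probe sets, and 2 members were higher at an unadjusted p under 0.05 (2.3%, against 2.65% of all). Motor neuron markers were higher at an unadjusted p under 0.05 for 8 of 10 tested genes (summed signals 4572 to 10880 in regenerating, 3084 to 5453 in non-regenerating and 2356 to 3976 in traced samples), and their part in the values of the members was not tested. Ret had the highest mean of these markers in each group (3309, 3252 and 2139 in that order). For non-regenerating against traced samples, 5 of the markers were higher and 5 lower, with a median of -0.05.

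Axotomy is addressed by setting the non-regenerating samples against the traced samples of other animals. Again no member passed limma, and the members were centred near 0. Of 87, 40 were higher and 47 lower in non-regenerating samples, with a median log2 fold change of -0.02 (quartiles -0.18 and 0.13), while the median over all probe sets was -0.12 (quartiles -0.44 and 0.16). The median over all depended on brightness. Above the 70th percentile of mean signal it was 0.036 over 9313 probe sets, beside 0.016 over 71 members. Ndufb6 and Cox6a2 were higher and Cox5a and Cox6c-ps1 lower at an unadjusted p under 0.05 in limma, which is 2.3% of members on each side, against 2.68% (higher) and 7.61% (lower) of all probe sets. The 2 groups did not overlap for 2 members, Ndufs4 and Atp5po (probe set 1397920_at), both lower (1.47% of all probe sets), and for 0 as higher (1.1%). Leaving out single arrays gave 0 to 4 members higher and 1 to 5 lower at the unadjusted p, with 4 and 5 without non-regenerating MM17 (4.6% and 5.75%, against 5.88% and 18.3% of all probe sets) and 0 and 1 without traced MM15 (0% and 1.15%, against 1.57% and 1.88%). In the whole table, 8 passed on the higher side (0.043%) and 0 on the lower (0%).

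Regenerating against traced samples gave a wider spread, with 0 members past the threshold. The lowest adjusted p by limma was 0.0699, for Cox6c-ps1. Median log2 fold change was 0.06 over the members (48 higher, 39 lower, quartiles -0.18 and 0.26) and -0.13 over all probe sets. At an unadjusted p under 0.05 in limma, 3 members were higher, Ndufb6, Atp5f1a and Atp5pd (3.45%, against 5.98% of all), and 4 lower, Cox6c-ps1, Cox5a, Ndufs4 and Atp5me at probe set 1377191_at (4.6%, against 17.6%). Groups did not overlap for 3 members, all lower (9.36% of all probe sets), namely Cox6c-ps1, Ndufs4 and Ndufa7 at probe set 1395045_at, and for 0 as higher (2.35%). Leaving out single arrays gave 1 to 5 members higher and 2 to 5 lower at the unadjusted p, with 1 and 2 without traced MM15 (1.15% and 2.3%, against 2.63% and 9.16% of all probe sets) and 5 and 3 without traced MM18 (5.75% and 3.45%, against 6.72% and 16.1%). In the whole table, 29 passed on the higher side (0.156%) and 11 on the lower (0.0591%). The share of lower values depended on brightness. Above the 70th percentile of mean signal, 1 of 71 members and 616 of 9313 probe sets were lower at that unadjusted p. There the medians were 0.115 over the members and 0.045 over all probe sets.

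These comparisons share the 3 traced arrays, so their values are given side by side and not set against each other. Without traced MM15 the member median was -0.17 for non-regenerating and -0.06 for regenerating against traced samples. When each array was centred on its own median the medians were 0.34 and 0.45, while those of all probe sets were 0.24 and 0.26. With the arrays as deposited, the member medians were -0.02 and 0.06 and those of all probe sets -0.12 and -0.13. The sign of the member median thus changed with this scaling for non-regenerating samples only, and its size changed for both.

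**Figure D2:**
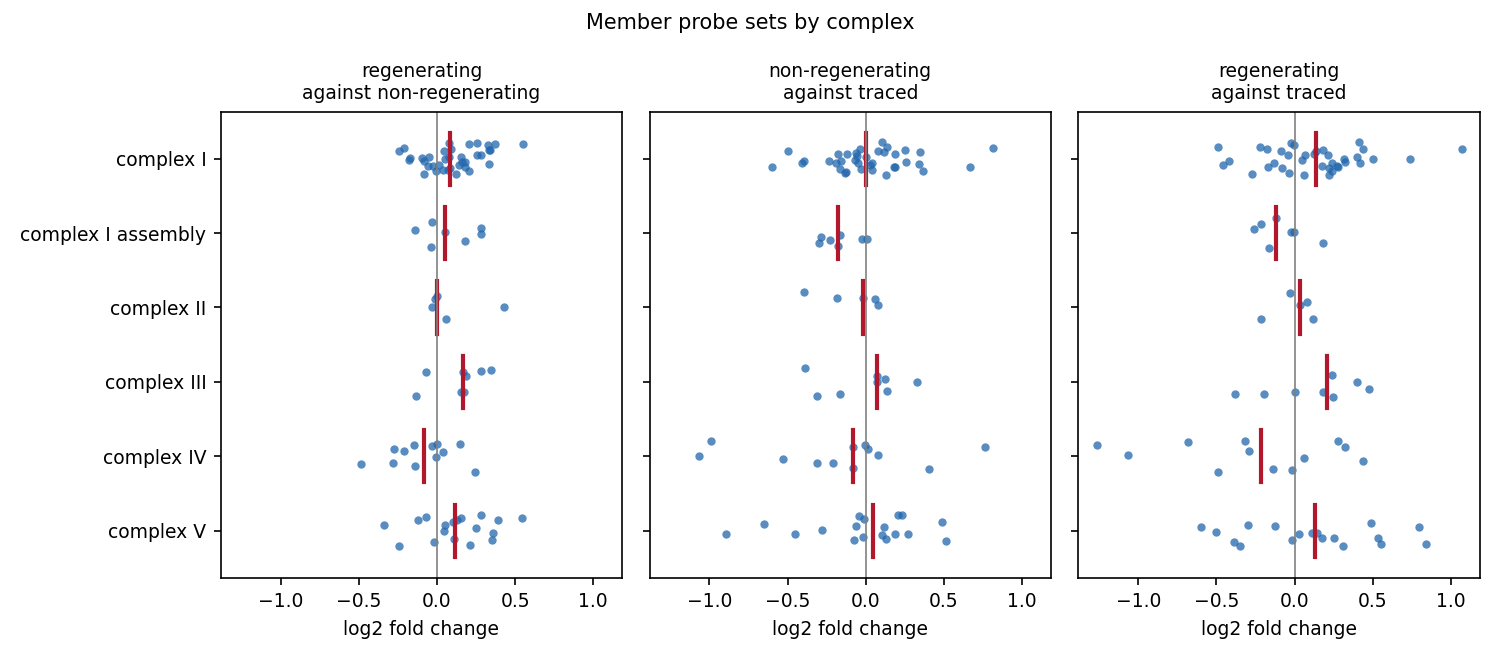
Each point is 1 of the 87 tested member probe sets, placed by complex (rows) and log2 fold change (x axis) in the 3 comparisons (panels), and red bars are medians per complex. Medians in the left panel lie between -0.09 for complex IV and 0.17 for complex III, and the points against traced samples spread more widely, down to -1.27 for Cox6c-ps1 and up to 1.07 for Ndufv2.

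Complex I, which oxidises NADH, had 37 tested probe sets, of which 26 were higher within animals and none passed limma. Ndufb7, an accessory subunit on the intermembrane space side of the membrane arm, had signals of 67.7, 193 and 281.7 in regenerating samples (lowest, median and highest), against 57.6, 137.5 and 227.8 in non-regenerating samples. Among the 7 animals it was higher in 6, and the log2 fold change was 0.37 (SE 0.15), which did not pass limma (adjusted p = 0.681). The ranges of the groups overlapped over most of their length.

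Ndufa11, which lies in the membrane arm near the contact with complex III, spanned 38.7 to 219.6 (median 203.6) in regenerating and 10.7 to 206 (median 86.3) in non-regenerating samples, with a log2 fold change of 0.55 (SE 0.27). It was higher in 5 of 7 animals, and non-regenerating MM17 gave the lowest value. Ndufa7, an accessory subunit of the peripheral arm, had 2 tested probe sets that disagreed. Probe set 1375411_at gave a log2 fold change of 0.34 (SE 0.14) and was higher in 6 of 7 animals, and 1395045_at gave -0.05 (SE 0.17) and was higher in 3 of 7.

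On the lower side, Ndufa4, once counted with complex I and now placed in complex IV, had 1796, 2448 and 2826 in regenerating and 1970, 2880 and 3811 in non-regenerating samples (log2 fold change -0.21, SE 0.13). By its symbol, Ndufa4 was counted with complex I in the counts and medians given here. It was higher in only 1 of 7 animals, and quantile normalization gave -0.06. Ndufb3, a small membrane arm subunit, differed by -0.24 (SE 0.18), with 7829.8 in non-regenerating MM17 and at most 4362 on any array other than that one and traced MM15.

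Against traced samples, Ndufb6, another membrane arm subunit, was the member of complex I with the smallest p. Its signal was 816.5, 1462 and 1866 in regenerating (lowest, median and highest) and 854.2, 1420 and 1883 in non-regenerating samples, against 716.9, 1016.8 and 839.9 in traced MM15, MM18 and MM19. The log2 fold change was 0.74 (SE 0.25, adjusted p = 0.103 by limma) for regenerating and 0.67 (SE 0.27, adjusted p = 0.472) for non-regenerating against traced samples. Both MM17 arrays and non-regenerating MM16 lay within the range of the traced samples, and all others lay above it. Without the arrays that stood apart, the values were 0.62 and 0.66.

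Ndufs4, an accessory subunit needed for a stable NADH-binding module and mutated in human Leigh syndrome, was lower in every axotomised sample than in any traced one. Regenerating samples had 218.7, 299 and 380.9 and non-regenerating samples 217.4, 315 and 392.3, against 440.4, 402 and 401.8 in traced MM15, MM18 and MM19. Its log2 fold change was -0.49 (SE 0.22, adjusted p = 0.197 by limma) in regenerating and -0.39 (SE 0.23, adjusted p = 0.502) in non-regenerating against traced samples. With each array centred on its median the first of these was -0.10.

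Ndufv2, an iron-sulphur subunit of the NADH-binding module, rested on the arrays that stood apart. It had 56.4 in traced MM15, against 496.4 and 439.8 in the other traced samples, 256.4 to 741.9 in regenerating and 217.4 to 750.2 in non-regenerating samples. Log2 fold changes of 1.07 (SE 0.52) for regenerating and 0.82 (SE 0.52) for non-regenerating against traced samples came down to 0.16 and 0.06 without the arrays that stood apart. Ndufs1, the large iron-sulphur subunit of that module, gave 0.44 (SE 0.24) and 0.37 (SE 0.30), with 708.1 in traced MM15 and 695.1 in non-regenerating MM17 beside 1086.9 to 1903.7 on the other arrays. Ndufb11 and Ndufc2, of the membrane arm, followed the same arrays, at 0.42 (SE 0.25) and 0.32 (SE 0.21) for regenerating against traced samples.

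Ndufa4l2, a relative of Ndufa4 that hypoxia induces, was dim in all groups, at 29.7 to 67.7, 19.7 to 58.9 and 51.7 to 88.5 in regenerating, non-regenerating and traced samples. It differed from traced samples by -0.42 (SE 0.25) in regenerating and -0.60 (SE 0.32) in non-regenerating samples, the second of which was -0.23 with quantile normalization. Ndufv3, a small subunit of the NADH-binding module, had probe sets at -0.50 (SE 0.34) and 0.04 (SE 0.30) for non-regenerating against traced samples, which disagreed in sign. Ndufa1, a small subunit of the membrane arm, spanned 2498 to 4164 in regenerating samples, with a log2 fold change of -0.17 (SE 0.15) within animals.

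The assembly factors of complex I, which build the complex and are not part of it, had 7 tested probe sets for 6 genes. Ndufaf5 and Ndufaf3 had the smallest p within animals, at 0.28 (SE 0.14) and 0.28 (SE 0.15), each higher in 6 of 7. Against traced samples 6 of 7 probe sets were lower in each comparison, with medians of -0.18 for non-regenerating and -0.12 for regenerating samples. Of all 18625 probe sets, 11396 and 11034 were lower in the same comparisons, with medians of -0.12 and -0.13. The medians of the assembly factors became 0.18 and 0.27 when the arrays were centred on their own medians, and -0.01 and 0.10 with quantile normalization. Ndufaf4 was at -0.22 (SE 0.24) for regenerating and -0.18 (SE 0.20) for non-regenerating samples, and the probe sets of Ndufaf7 were at -0.26 (SE 0.30) and -0.17 (SE 0.35) for regenerating samples. None of these had an unadjusted p under 0.05 in limma.

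Complex II, or succinate dehydrogenase, is shared with the citric acid cycle, and Sdhb was its only gene with an unadjusted p under 0.05, within animals. Sdha, the flavoprotein subunit that oxidises succinate, differed by -0.00 (SE 0.11) within animals. The membrane anchors Sdhc and Sdhd differed by -0.03 (SE 0.11), and by 0.06 (SE 0.16) and -0.01 (SE 0.15) at the probe sets of Sdhd. Against traced samples Sdhc was at -0.21 (SE 0.23) in regenerating and -0.19 (SE 0.21) in non-regenerating samples. The signal of Sdhb was 118.3, 735.8 and 1093 in regenerating and 134.5, 473.6 and 961.6 in non-regenerating samples (lowest, median and highest), against 274.9, 628.5 and 611.1 in traced MM15, MM18 and MM19. The log2 fold change within animals was 0.43 (SE 0.18, adjusted p = 0.678 by limma), and Sdhb was higher in 5 of 7. Differences above 1 came from MM17 (1.22) and MM14 (1.18), and MM11 and MOON266 were at -0.06 and -0.16. Without MM17 the value was 0.30, among MM animals alone 0.61 and among MOON animals alone -0.02. Against traced samples Sdhb was at 0.03 (SE 0.59) in regenerating and -0.40 (SE 0.54) in non-regenerating samples.

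**Figure D3:**
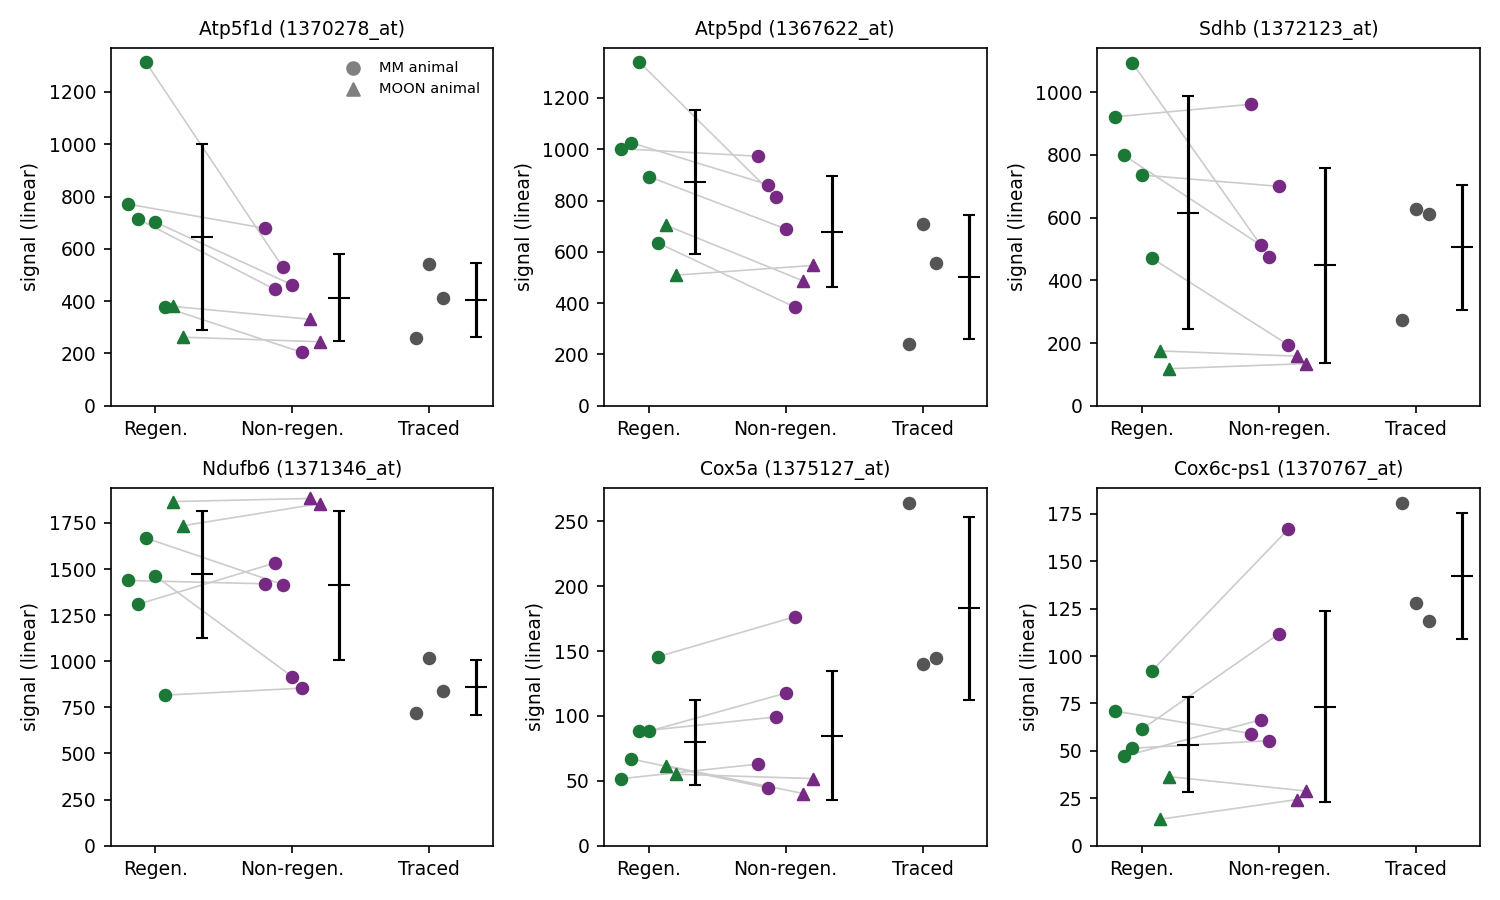
Signals on a linear axis of 6 members in regenerating, non-regenerating and traced samples, with 1 point per array, grey lines joining the samples of 1 animal, triangles for MOON animals, and bars for mean and SD. Atp5f1d and Atp5pd lie higher in the regenerating sample of 7 and 6 of 7 animals, the MOON arrays of Sdhb lie at 118.3 to 175, and Cox5a and Cox6c-ps1 are highest in traced MM15 (264.6 and 180.5).

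Complex III, the cytochrome bc1 complex, had 8 tested probe sets, 6 of them higher in regenerating than in non-regenerating neurons. Uqcrq, a small subunit bound near cytochrome b, had 200.9, 428.8 and 641.3 in regenerating against 221.4, 262.5 and 469 in non-regenerating samples, and 306.4, 342.4 and 362.8 in traced MM15, MM18 and MM19. It was higher in 6 of 7 animals (log2 fold change 0.35, SE 0.16, adjusted p = 0.697 by limma), with MOON265 at -0.31. Uqcr10, a small subunit next to cytochrome c1, and Uqcrc1, a core protein, differed by 0.28 (SE 0.17) and 0.17 (SE 0.13), and each was higher in 4 of 7. Uqcrh, the hinge protein that binds cytochrome c1, was at -0.14 (SE 0.15) within animals and at 0.00 (SE 0.19) for regenerating against traced samples. No member of complex III had an unadjusted p under 0.05 in limma against traced samples.

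Complex IV, cytochrome c oxidase, was the one complex with more members lower than higher in all 3 comparisons, 8 of 12 tested probe sets each time. Its medians were -0.09 within animals, -0.08 for non-regenerating and -0.22 for regenerating against traced samples. Over all 18625 probe sets tested, 9349 were lower within animals. Against traced samples, 11396 of all were lower for non-regenerating and 11034 for regenerating samples. The medians over all probe sets were -0.00, -0.12 and -0.13 in that order. The counts of complex IV were not tested. Centring the arrays on their own medians turned its medians to 0.28 for non-regenerating and 0.17 for regenerating against traced samples, with -0.06 within animals.

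Cox5a, a core-associated subunit on the matrix side whose promoter is shown above, had 51.7, 66.9 and 145.8 in regenerating and 40.2, 62.9 and 176.6 in non-regenerating samples (lowest, median and highest), against 264.6, 140 and 144.9 in traced MM15, MM18 and MM19. Its log2 fold change was -1.06 (SE 0.31, adjusted p = 0.0748 by limma) for regenerating and -1.07 (SE 0.39, adjusted p = 0.472) for non-regenerating against traced samples. The overlap with traced samples came from the MM17 animal, which was highest in both axotomised groups. Without the arrays that stood apart the values were -0.79 and -0.97, and within animals Cox5a differed by 0.00 (SE 0.17).

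Cox6c-ps1 is named as a pseudogene copy of Cox6c, the gene of subunit 6c, and signal from a near-identical copy cannot be told apart here. Its signal was 13.9, 51.4 and 92 in regenerating and 24.3, 59.1 and 167 in non-regenerating samples, against 180.5, 127.9 and 118.5 in traced MM15, MM18 and MM19. Every regenerating sample lay below every traced one, and the log2 fold change was -1.27 (SE 0.35), at an adjusted p of 0.0699 by limma, and non-regenerating against traced samples gave -0.99 (SE 0.42, adjusted p = 0.472). Without the arrays that stood apart these were -1.10 and -1.03. Cox6c itself had 2834, 3530 and 4228 in regenerating and 2857, 3729 and 5636 in non-regenerating samples, against 5895.6, 3760.2 and 3608.2 in traced samples, and differed by -0.29 (SE 0.21) and -0.08 (SE 0.26) from them.

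Several subunits of complex IV come in forms that differ between tissues. Cox6a2, the heart and skeletal muscle form of subunit 6a, had 4.9, 69.7 and 129.6 in regenerating and 35, 70.2 and 104.8 in non-regenerating samples, against 18.2, 62.5 and 27.9 in traced MM15, MM18 and MM19. It differed by -0.49 (SE 0.27) within animals and by 0.76 (SE 0.33, adjusted p = 0.472 by limma) between non-regenerating and traced samples. Within animals the MOON pair average was -1.41 and the MM average -0.12. Its lowest signal lay below the offset of 16, and the values were -0.86 and 1.04 with an offset of 1, -0.21 and 0.42 with an offset of 64, and -0.30 and 0.50 without the arrays that stood apart. Cox6a1, the form of other tissues, had 517.5 to 1012, 578.6 to 1004 and 719.8 to 1141.9 in the 3 groups in order.

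Cox7a1, another muscle form, lay at 23.9 to 108.7 in regenerating, 39.5 to 166.6 in non-regenerating and 104 to 129.3 in traced samples, with -0.68 (SE 0.34) for regenerating against traced. The 8 skeletal muscle markers summed to 1150 to 4344, 1162 to 5350 and 1270 to 4094 in the same groups, and most of the sum was Myh1, which averaged 1954, 2485 and 1800. The other 7 markers had their highest mean in traced samples, among them Myl1 (22.1, 26.3 and 199.6), Acta1 (54.2, 46.1 and 187.9), Tnnt3 (28.8, 52.7 and 142.9) and Ckm (12.9, 19.2 and 45.2). Of the 4 tested markers 3 were lower against traced samples, with medians of -0.71 for regenerating and -0.72 for non-regenerating samples. Their part in the values of these forms was not tested. Cox8a, the form of subunit 8 found in most tissues, differed by -0.03 (SE 0.13) within animals, and Cox6b1, the somatic form of subunit 6b, by 0.24 (SE 0.15). The probe sets of Cox4i1, Cox4i2, Cox6b2, Cox7b2 and Cox8b were too dim to be tested. Cox4i1, the common form of subunit 4, gave signals of 4.8 to 27.7, 4.3 to 26.9 and 7.6 to 34.5 in the 3 groups, near the offset of 16 added before taking logs, so these probe sets give no usable level.

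Cox7c, a small membrane subunit, had 1135.9 in traced MM15 beside 2630 and 2827.2 in the other traced samples, and its log2 fold change against traced samples was 0.44 (SE 0.31) for regenerating and 0.40 (SE 0.29) for non-regenerating samples. Cox7a2l, which joins complexes III and IV into supercomplexes, differed by -0.28 (SE 0.18) within animals, and by -0.49 (SE 0.34) in regenerating and -0.21 (SE 0.44) in non-regenerating against traced samples.

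Complex V, the ATP synthase, held the member with the smallest p within animals. Atp5f1d, the delta subunit of the rotor stalk, had 262.2, 702 and 1313 in regenerating against 204.3, 445.4 and 678.5 in non-regenerating samples (lowest, median and highest), and 259.9, 543.7 and 411.5 in traced MM15, MM18 and MM19. It was higher in 7 of 7 animals, from 0.09 in MOON266 to 1.28 in MM14, and its log2 fold change of 0.55 (SE 0.15) had an unadjusted p of 0.002053 and an adjusted p of 0.541 by limma. The difference was 0.71 among MM animals alone and 0.14 among MOON animals alone. Atp5f1e, its neighbour in the stalk, had 0.36 (SE 0.21) and was higher in 5 of 7.

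Atp5pd, the d subunit of the peripheral stalk, had 509.1, 893.5 and 1340 in regenerating and 383.9, 689.4 and 972.6 in non-regenerating samples, against 239.2, 709.5 and 557.3 in traced MM15, MM18 and MM19. It was higher in the regenerating sample of 6 of 7 animals (0.36, SE 0.13, adjusted p = 0.678 by limma). Against traced samples it differed by 0.84 (SE 0.34, adjusted p = 0.152) in regenerating and 0.49 (SE 0.34) in non-regenerating samples. Traced MM15 was the lowest array, and without the arrays that stood apart the difference for regenerating samples was 0.40.

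In the catalytic head, made of alpha and beta subunits, the alpha subunit showed the same dependence. Atp5f1a, the alpha subunit, had 1656, 2170 and 2476 in regenerating and 426.9, 2060 and 2512 in non-regenerating samples, against 524, 1693.5 and 1728.5 in traced MM15, MM18 and MM19. The log2 fold change for regenerating against traced samples was 0.80 (SE 0.32, adjusted p = 0.146 by limma), and 0.24 without the arrays that stood apart. Atp5f1b, the catalytic beta subunit, had 3007, 4812 and 5312 in regenerating and 2979, 4642 and 6047 in non-regenerating samples, and differed by -0.02 (SE 0.17) within animals and by 0.25 (SE 0.22) from traced samples.

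In the membrane part, Atp5mc3, which encodes the c subunit of the rotor ring, had 2244, 2666 and 3937 in regenerating against 2069, 3781 and 3984 in non-regenerating samples (-0.24, SE 0.15, higher in 2 of 7), and -0.09 with quantile normalization. Atp5mk, a small subunit involved in dimers of the synthase, differed by -0.34 (SE 0.19), and by -0.02 with quantile normalization and -0.20 without MM17, whose non-regenerating sample had 14268.5. Atp5pf, the F6 coupling factor of the peripheral stalk, differed by -0.12 (SE 0.15). Atp5if1, the inhibitor that stops the synthase from running backwards, had 355.9, 580.3 and 1261 in regenerating and 420.6, 485.7 and 780.5 in non-regenerating samples at its 1 tested probe set of 3, against 446.3, 395.6 and 451.7 in traced samples, and differed from these by 0.49 (SE 0.32) in regenerating samples.

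Atp5me and Atp5po, each with 2 tested probe sets, had fold changes against traced samples that differed between them. Atp5me, whose promoter is shown above, had, at probe set 1377191_at, 37.5, 74.1 and 110.5 in regenerating and 28.9, 51.5 and 155.3 in non-regenerating samples, against 113.4, 91.8 and 140.5 in traced samples, at -0.60 (SE 0.28, adjusted p = 0.205 by limma) for regenerating against traced. Probe set 1387019_at gave -0.35 (SE 0.22). Probe set 1397920_at of Atp5po, the stalk subunit that confers oligomycin sensitivity, was lower in all 7 non-regenerating than in all traced samples (at most 71.4, against 72.6, 79.2 and 93.5), with -0.89 (SE 0.43), while 1370276_at gave -0.07 (SE 0.27). At 1397920_at, non-regenerating MM11 and MOON266 had signals of 4.4 and 14, below the offset of 16.

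The arrays of non-regenerating MM17 and traced MM15 set the members apart in both directions at once. On both arrays 9 of 87 members lay above every other array (10.3%, against 19.4% of all probe sets) and 17 below every other array (19.5%, against 11.6%). Among the members above, Atp5mk, of the membrane part of ATP synthase, had 14268.5 and 13431.1 beside 3398.1 to 7862.8 on the other 15 arrays, and Cox7a2l of complex IV had 8904.8 and 8867.1 beside 1839.9 to 3924.1. Among the members below was probe set 1373362_at of Uqcrc2, a core protein of complex III, with 251.9 and 179.9 beside 531.4 to 788.4. The other probe set of Uqcrc2, 1382280_at, was not low there. It had 169.8 in non-regenerating MM17, its highest array, and 83.4 in traced MM15. Atp5f1a lay at 426.9 and 524 beside 1655.7 to 2511.5. The 2 samples came from different animals and groups, the arrays were picked by their correlation with the others over all probe sets, and these values are a description with no test.

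**Figure D4:**
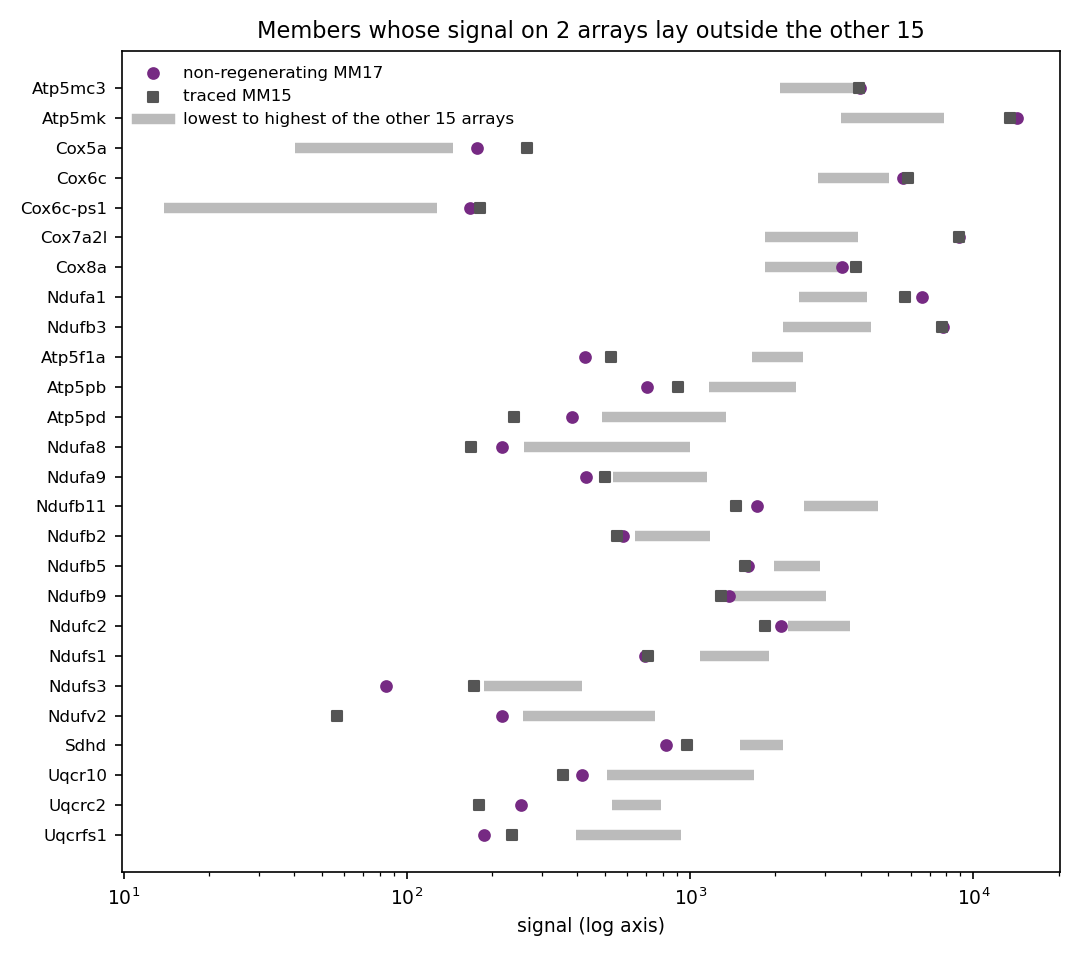
Signals on a log axis of the 26 member probe sets that lay above or below all other arrays on both non-regenerating MM17 (circles) and traced MM15 (squares), with grey bars from the lowest to the highest of the other 15 arrays. The upper 9 rows lie above the bars, with Atp5mk at 14268.5 and 13431.1, and the lower 17 lie below them, with Atp5f1a at 426.9 and 524.

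MOON and MM animals differed in the members too, over the 14 axotomised arrays. The median MOON minus MM difference was -0.40 over the members and -0.32 over all probe sets. Of 87 members, 19 were lower on all 4 MOON arrays than on all 10 MM arrays (21.8%, against 14.6% of all probe sets) and 5 were higher (5.75%, against 5.34%). Sdhb was at 118.3 to 175 on MOON arrays and 193.9 to 1093 on MM arrays, a log2 difference of -1.99. Uqcr11, a small subunit of complex III, had 205.5 to 285.3 and 569.5 to 993.3 (-1.45), and Atp5mg, the g subunit of the synthase, 66.5 to 149.1 and 174.4 to 490.9 (-1.40). In the other direction, Ndufc1 of complex I had 913.3 to 980 on MOON and 345.3 to 685.9 on MM arrays (0.94), and Atp5pb, the b subunit of the peripheral stalk, 2115.7 to 2369.2 and 704.6 to 1529.7 (0.85). Members named above for their values against traced samples, which were all from MM animals, were also among these. Cox6c-ps1 had 13.9 to 36.4 on MOON and 47.2 to 167 on MM arrays (-1.12). Ndufs4 had 217.4 to 241.4 and 290.3 to 392.3 (-0.53), and Ndufb6 1735 to 1882.9 and 816.5 to 1668.2 (0.55). With the name prefix as a term, the member median was 0.04 for non-regenerating and 0.19 for regenerating against traced samples, and 0 members passed limma. At an unadjusted p under 0.05, 1 member was higher and 1 lower in non-regenerating samples (1.15% each, against 3.22% and 3.54% of all probe sets). In regenerating samples 13 were higher (14.9%, against 11.9%) and 3 lower (3.45%, against 17.4%).

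**Figure D5:**
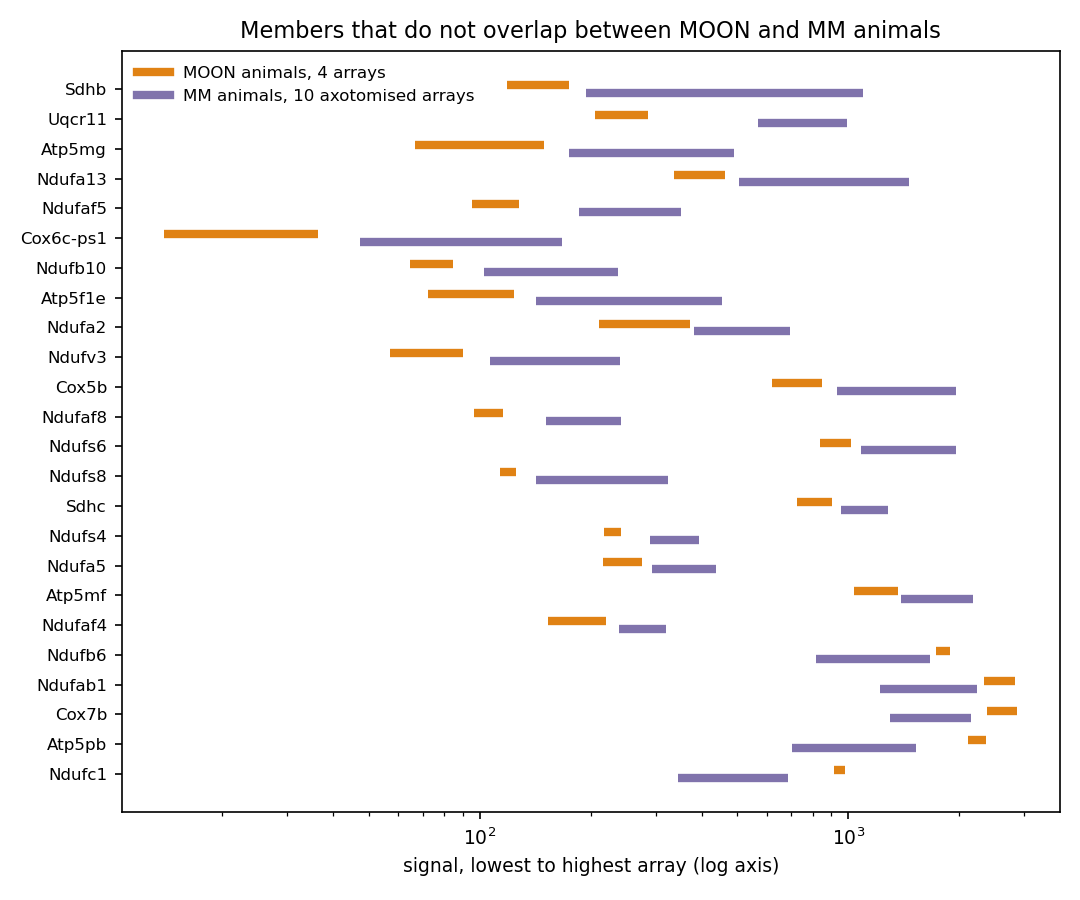
Bars span the lowest to the highest signal (log axis) on the 4 arrays of MOON animals and the 10 axotomised arrays of MM animals, for the 24 member probe sets whose spans do not overlap. Of these, 19 lie lower on the MOON arrays, from Sdhb (118.3 to 175 beside 193.9 to 1093) downward, and the last 5 rows lie higher.

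Other genes of the pathway were described from lists. Cytochrome c and its partners, which feed electrons between the complexes, had 4 of 4 tested genes higher within animals (median 0.23), with 1 at an unadjusted p under 0.05, Etfb (0.50, SE 0.17), and 3 of 4 higher in non-regenerating (0.34) and regenerating (0.62) against traced samples. Etfb and Etfa encode the electron transfer flavoprotein of fatty acid oxidation. Etfa averaged 436 in regenerating and 406.7 in non-regenerating against 227.5 in traced samples, at 0.94 (SE 0.26, adjusted p = 0.071 by limma) for regenerating against traced. Assembly factors of complexes other than those above had 19 of 30 genes higher within animals (median 0.12), led by Cox16 (0.38, SE 0.15), and 17 and 18 of 30 higher in non-regenerating (0.06) and regenerating (0.13) against traced samples, and none of 30 passed in any comparison. Cox20, a chaperone of complex IV, averaged 51.81 and 58.67 in regenerating and non-regenerating and 122.3 in traced samples, at -1.03 (SE 0.29, adjusted p = 0.071) for regenerating and -1.07 (SE 0.44) for non-regenerating against traced.

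The citric acid cycle and pyruvate entry list had 10 of 22 genes higher within animals (median -0.01), 14 of 22 for non-regenerating (0.08) and 14 of 22 for regenerating against traced samples (0.15). Pdk4 and Pdk2, kinases that switch off pyruvate dehydrogenase, were higher against traced samples, Pdk4 by 0.83 (SE 0.35) in regenerating and 0.81 (SE 0.25, adjusted p = 0.472 by limma) in non-regenerating samples and Pdk2 by 0.68 (SE 0.25) and 0.50 (SE 0.24). Mitochondrial carriers and uncouplers had 9 of 17 higher within animals (0.02), with Slc25a20, the carnitine carrier, at 0.56 (SE 0.16, adjusted p = 0.568 by limma), and 11 and 10 of 17 higher in non-regenerating (0.14) and regenerating (0.11) against traced samples. Ucp3, an uncoupling protein of muscle, averaged 45.64 and 48.64 in regenerating and non-regenerating and 92.4 in traced samples. Import and chaperone genes had 9 of 17 higher within animals (0.04), led by Timm13 (0.56, SE 0.19), and 10 of 17 and 8 of 17 against traced samples (0.05 and -0.02). None of these genes passed limma.

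Regulators of the nuclear genes of mitochondria had 7 of 13 genes higher within animals (median 0.04), and 9 of 13 against traced samples in non-regenerating (0.12) and regenerating neurons (0.21). Ppargc1a, which encodes the coactivator PGC-1alpha, averaged 160 in regenerating and 175.5 in non-regenerating against 311.5 in traced samples, at -1.17 (SE 0.47, adjusted p = 0.152 by limma) and -0.86 (SE 0.34, adjusted p = 0.472) against traced. Gabpa, the DNA-binding part of the factor whose ETS letters were searched above, averaged 176 and 168.1 against 96.83 in traced samples, at 0.77 (SE 0.27, adjusted p = 0.108) and 0.66 (SE 0.32). Its partner Gabpb1 was at -0.61 (SE 0.37) and -0.67 (SE 0.30). Nrf1 was at 0.41 (SE 0.43) and 0.37 (SE 0.46), Yy1 at 0.02 (SE 0.20) and 0.05 (SE 0.22), and Tfam, which packs mitochondrial DNA, at 0.21 (SE 0.25) and 0.30 (SE 0.25). Tfb2m, a mitochondrial transcription factor, was at 0.80 (SE 0.36) and 0.52 (SE 0.46), and Ppard, a nuclear receptor for fatty acids, at -0.64 (SE 0.29) and -0.56 (SE 0.33). Within animals the 13 regulators lay between -0.31 (Ppargc1a) and 0.28 (Tfb2m), and no regulator had an unadjusted p under 0.05 there.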

How the data were processed

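Affymetrix arrays of 17 samples were deposited as linear signal intensity per probe set, made with GCOS per the submitters' processing notes (version not given). The deposited arrays were used as scaled, with a mean of 200 to 200.1 without the outer 2% of signals, and 0 pairs of arrays were identical. From them, 16 (the 25th percentile) was added before log2, leaving out 57 control probe sets and 12417 dim ones (mean log2 signal under the 40th percentile). The 18625 others were tested with limma 3.58.1 in R 4.3.3 (lmFit, eBayes with trend), with calls at a Benjamini-Hochberg adjusted p under 0.05. Regenerating and non-regenerating samples were paired by animal, as the series design states, and their deviations correlated within animals (r = 0.34 to 0.71). Traced samples were compared between animals, and SE is that of limma. Symbols came from the platform annotation, of which 20764 of 20832 probe sets with 1 symbol matched RefSeq and 0 changed. Members, gene lists and tests were chosen with earlier results of these data known. Named genes were those with the smallest p per comparison (up to 8 each way), the 3 with the highest mean per complex, complex II, tissue forms, 2 assembly factors, regulators and up to 3 genes of smallest p per other list. Signals of different probe sets were not set against each other. The script was tested on simulated data. Python 3.11.15 and matplotlib 3.10.9 drew the figures.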

Additional observations from a re-analysis of the deposited data

Results flagged for a closer look

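In groups of 7 arrays, a value was singled out where its gap to the nearest other array, divided by the range of the group, was above 0.568. This held for 5 of 118 groups of values, and chance gives about 1 in 20.

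Non-regenerating MM17 was the array in 3 of them. Its median log2(signal + 16) over complex III was 8.44, with 9.14 on the next lowest array of the group. Atp5f1a, the alpha subunit of ATP synthase, had a signal of 426.9 there and 1768 on the next. Sdhd, a membrane anchor of complex II, had 819.2 and 1653.3 at 1 of its probe sets. The other values were of single genes. Ndufb6 of complex I had 816.5 in regenerating MM17, below the next lowest of 1308.7. Atp5if1, the inhibitor of ATP synthase, had 780.5 in non-regenerating MM11, above the next highest of 547.7.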

How the results depend on the processing

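No member passed within animals under any alternative, and without the replicate block 0 members and 0 probe sets passed, the member median was 0.07 and 0 members had an unadjusted p under 0.05 (against 0.773% of the whole table on the higher and 0.392% on the lower side). Members passing for non-regenerating against traced samples were 5 with array weights (Cox5a, Cox6c-ps1, Cox7a1, Atp5mg and Ndufb6) and 0 otherwise. For regenerating against traced samples they were 5 with array weights (Cox5a, Cox6c-ps1, Ndufa7, Ndufb6 and Atp5pd), 1 with an offset of 64 (Cox6c-ps1), and 0 to 3 when single arrays were left out, with 3 without regenerating MM17 (Cox5a, Cox6c-ps1 and Ndufb6). Array weights passed 2440 and 3131 of all probe sets, against 8 and 40 with equal weights, the offset of 64 passed 859, and the fit without regenerating MM17 passed 1504. The cause was not tested. Over all alternatives, 0 to 4 of all probe sets passed within animals (3 as reported), 2 to 2440 for non-regenerating and 1 to 3131 for regenerating against traced samples. In each setting where a named member passed, its sign was that of the reported fit. Of the 4 higher and 4 lower members with the smallest p in each comparison with traced samples, centring the arrays made the size of 4 smaller and 2 larger by over 1.5 times in non-regenerating samples, and of 3 smaller and 1 larger in regenerating samples, with 0 sign changes.

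The member median within animals was -0.09 among MOON animals and 0.13 among MM animals alone, where 16 members were higher at an unadjusted p under 0.05 (18.4%, against 6.11% of all probe sets). With a 3′ bias covariate, the medians were -0.08 for non-regenerating and -0.15 for regenerating against traced samples. Quantile normalization gave 0.12 within animals, -0.01 and 0.08, beside 0.00, 0.01 and 0.01 over all probe sets. Small groups, dim probe sets and uneven RNA length limit these values, and both comparisons with traced samples rest on 3 traced arrays, 1 of which stood apart.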

Other observations

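Markers of cells other than those described above were measured in the same arrays. Summed signals of 8 oligodendrocyte genes were 9958 to 17010 in regenerating, 10240 to 19690 in non-regenerating and 12640 to 17200 in traced samples. The 6 endothelial genes summed to 1382 to 3540, 1494 to 2748 and 2200 to 2399, the 5 fibroblast and meningeal genes to 1167 to 4674, 1186 to 3040 and 1970 to 2155, and the 4 Schwann cell genes to 3236 to 5552, 2503 to 3998 and 2623 to 3223, in the same order of groups. No gene of these 4 lists passed limma in any comparison, and at an unadjusted p under 0.05 within animals 1 endothelial gene was higher, 1 was lower and 1 Schwann cell gene was higher.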
